A study of Saccharomyces cerevisiae with 24 samples.

Results

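The strains described here each lack 1 of 60 genes for proteins of the large subunit of the cytosolic ribosome in the yeast Saccharomyces cerevisiae. They were chosen by the systematic names of these genes in the annotation of a barcode microarray. Of the 60 genes, 57 had a barcode probe, among 5526 deletion strains with a probe. RPL4B, RPL11A and RPL33A had none and were not analysed here. The 60 genes form 27 paralog pairs and 6 further genes, RPL15B, RPL17B, RPL29, RPL38, RPL39 and RPL40A, whose paralog is not in the list or does not exist. Of the 57 strains, 44 had enough signal over all samples to be tested, against 4109 of 5526 strains on the array. The 13 strains with a probe that were not tested include those lacking RPL1B, RPL13A, RPL13B, RPL14B, RPL20B, RPL21A, RPL22A, RPL27A, RPL31A, RPL36B, RPL37A or RPL39.

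The samples were genomic DNA of a pooled haploid knockout collection in the BY4742 background, so every strain of every group carries its own gene deletion. The pool carried either the empty vector pYX223 or pYX223-MDM33, a multicopy plasmid with MDM33 behind the GAL1/10 promoter, which is off on glucose and on in galactose. MDM33 encodes a protein of the mitochondrial inner membrane whose overexpression arrests growth, and the screen asked which deletion strains grow in spite of it. Transformants were first selected on glucose and then plated on 2% glucose for 2 days or on 2% galactose for 4 days, so sugar and time on the plate cannot be told apart. The 4 groups, empty vector on glucose, empty vector on galactose, MDM33 plasmid on glucose and MDM33 plasmid on galactose, were each measured in 2 experiments, from 24 dye channels in all. In experiment 1 every glucose sample was labelled with Cy5 and every galactose sample with Cy3, so dye and sugar cannot be told apart there, while in experiment 2 both dyes were used for each sample.

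Each strain carries a pair of DNA barcodes, the uptag and the downtag, and the signal of a strain is the mean of both, in array intensity units after the authors had brought each channel to the same total. A signal thus measures a strain relative to the rest of the pool, and fewer cells of a strain cannot be told apart from more cells of the others. Barcodes differ in how brightly they read, so strains are compared below by their differences between groups. Detection of a strain in an experiment means that at least 1 of its tags lay above a detection limit taken from the barcodes of the tag that was not labelled. With the MDM33 plasmid this limit was 176 to 837 units in glucose channels and 786 to 3339 units in galactose channels, so a weak signal was harder to detect in the last group. The experiments of that group also differed most, by a median of 1.73 on the log2 scale over tested strains, against 0.65 to 0.76 in the other groups. Differences are given on the scale of log2(units + 500), which understates the change of dim strains, with the standard error (SE) of a limma fit to the 8 values of each strain and a p adjusted over all 4109 tested strains. Where a pair of values is given for a group, the value of experiment 1 comes before that of experiment 2.

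The large ribosomal subunit joins amino acids in its peptidyl transferase centre and releases the growing chain through a tunnel that proteins line and surround. Yeast kept duplicate genes for most of its ribosomal proteins after a genome duplication, so that a strain lacking one paralog can often grow on the product of the other. Such strains commonly grow slowly to a degree that depends on the share of the protein that the lost copy made.

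A smaller share of the large subunit strains than of all strains was detected in both experiments of each group. This share was lowest on galactose with the MDM33 plasmid. With the empty vector, 26 of 57 strains were found on glucose in each experiment (45.6%, 95% Wilson interval 33.4 to 58.4%), against 65.7% of all 5526 strains. On galactose with this vector 25 were detected in both (43.9%), against 65.3% of all strains. With the MDM33 plasmid 34 were detected on glucose (59.6%, 46.7 to 71.4%), against 66.8%. On galactose with the MDM33 plasmid 14 were detected in both experiments (24.6%, 15.2 to 37.1%), 11 in a single experiment and 32 in neither, and the share of all strains detected in both was 39.5%. The intervals cover counting error only.

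**Figure D1:**
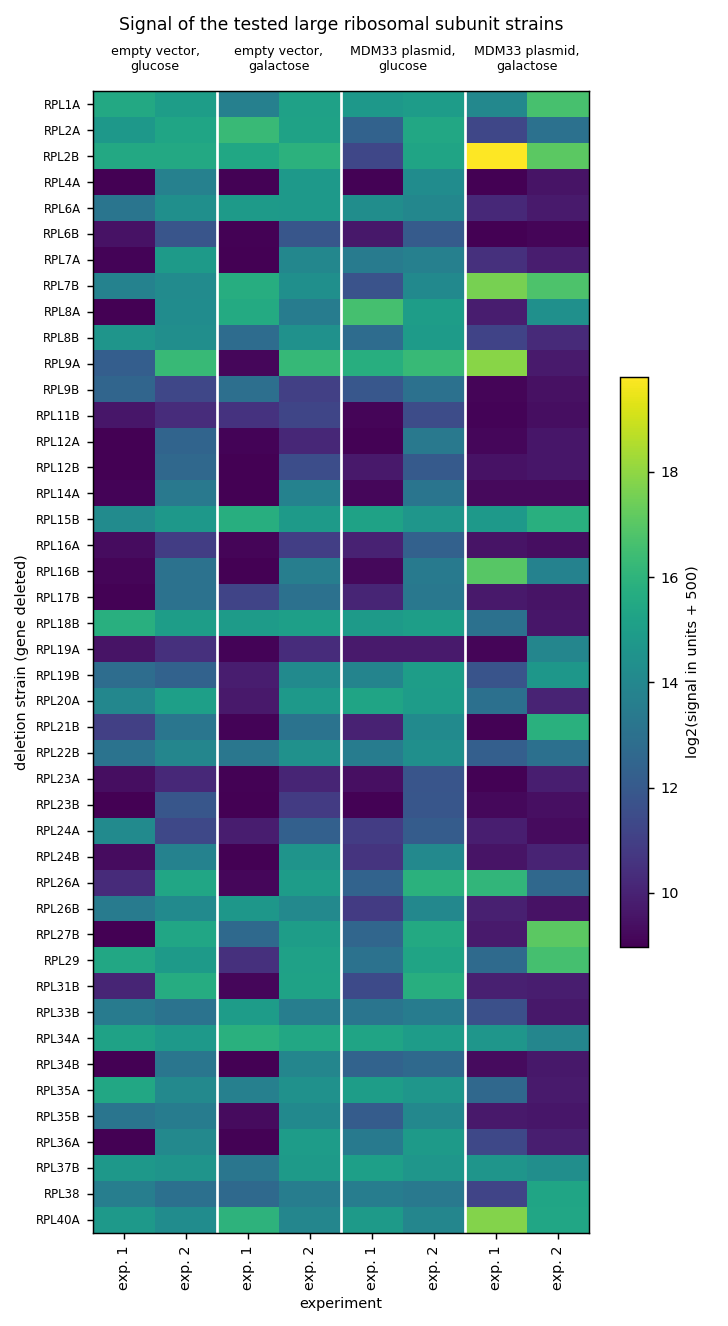
Heat map of the signal of the 44 tested large subunit strains. Rows are strains by the gene deleted, columns are the 2 experiments in each of the 4 groups, and colour is log2(units + 500). Dark cells, of low signal, are more frequent in experiment 1 than in experiment 2 outside the last group.

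Of the 57 strains, 12 were detected in all 8 samples, those lacking RPL1A, RPL2A, RPL2B, RPL7B, RPL15B, RPL19B, RPL22B, RPL29, RPL34A, RPL37B, RPL38 or RPL40A. This was 21.1% of the large subunit strains, and 37.9% of all strains were detected in all 8. A further 11 strains were detected in none (19.3%, against 20.8% of all strains), among them those lacking RPL1B, RPL13A, RPL13B, RPL14B, RPL20B, RPL22A, RPL27A, RPL31A, RPL36B or RPL39. In 8 pairs, among them those of RPL1, RPL14, RPL20, RPL22, RPL27, RPL31 and RPL36, a strain of this set stands beside a paralog strain that was tested. For the RPL13 pair neither strain was detected anywhere. Whether the 11 undetected strains were in the pool was not determined. The strain lacking RPL39, which encodes a small protein of the exit tunnel, had between 13.5 and 233 units.

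Many large subunit strains were detected in experiment 2 and not in experiment 1. With the empty vector on glucose this held for 19 strains, or 33.3%, and the reverse for 0, which allows a share of up to 5.26%. Over all strains the shares were 9.84% and 0.814%. On galactose with the empty vector 20 strains (35.1%) were detected in experiment 2 alone and 0 in experiment 1 alone, against 7.13% and 1.19% of all strains. With the MDM33 plasmid on glucose 11 strains (19.3%) were detected in experiment 2 alone, against 9.27% of all strains, and again 0 in experiment 1 alone. On galactose with the MDM33 plasmid this was not so, since 4 strains were detected in experiment 2 alone and 7 in experiment 1 alone (7.02% and 12.3%), near the shares of all strains, 6.30% and 15.5%. By uptags alone the counts in experiment 2 alone were 14, 15, 9 and 1 in these 4 groups, and by downtags alone they were 19, 23, 13 and 7.

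The median difference of experiment 2 minus experiment 1 over the 44 tested strains was 0.88 with the empty vector on glucose, 1.74 with it on galactose, 2.01 with the MDM33 plasmid on glucose and -0.04 with it on galactose. Over all tested strains the medians were 0.19, 0.25, 0.23 and -0.54. The strains lacking RPL4A, RPL6B, RPL12A, RPL12B, RPL14A, RPL16B, RPL19A, RPL23A or RPL23B were each undetected in the first 3 groups in experiment 1 and detected in all of them in experiment 2. These 9 strains are 15.8% of the large subunit strains, and 1.83% of all strains had this pattern. The strain lacking RPL4A, whose product lines the tunnel wall, is an example, with 1.12 and 13184 units with the empty vector on glucose, 30.0 and 28101 on galactose, and 20.5 and 18847 with the MDM33 plasmid on glucose. Small subunit strains, which lack an RPS gene, were detected in experiment 2 alone in 11, 18, 11 and 7 of 52 cases in the 4 groups. The cause of the difference between experiments was not tested.

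**Figure D2:**
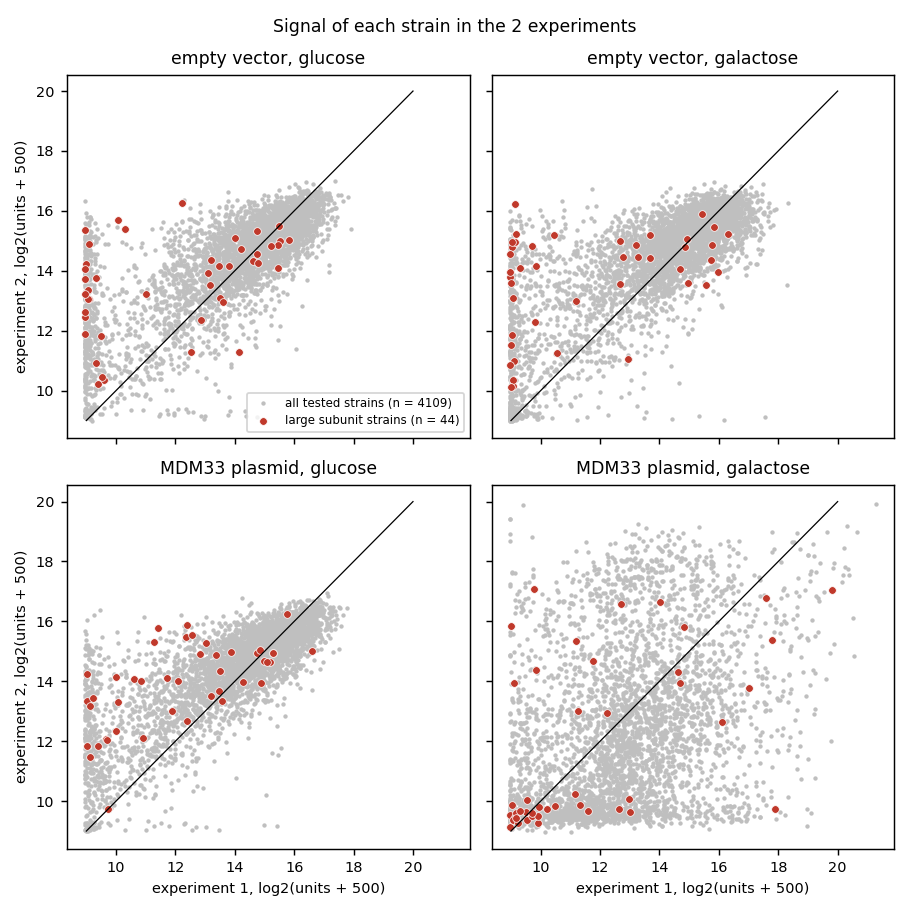
Signal in experiment 1 (x axis) against experiment 2 (y axis) in each of the 4 groups, both as log2(units + 500), with the line of equal values. Grey points are all 4109 tested strains and red points the 44 tested large subunit strains. Many of the red points lie above the line at the left edge in the first 3 panels, with low signal in experiment 1.

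On galactose, 2 of the 44 tested large subunit strains had lost signal with the MDM33 plasmid, relative to the empty vector, at a limma adjusted p under 0.05, those lacking RPL6A and RPL26B, and none had more. The share of calls over the 4109 tested strains was 8.88% for less signal and 0.195% for more. The median difference was -1.30 over the large subunit strains and -1.57 over all tested strains, and 30 of the 44 lay below 0. An unadjusted p under 0.05 was found for 8 of them and for 1406 of all tested strains. Without the filter on dim strains the medians were -0.40 over 57 large subunit strains and -0.75 over all 5526. The experiments differed here, with a median over the tested large subunit strains of 0.09 in experiment 1 and -1.88 in experiment 2, against -1.07 and -2.30 over all tested strains. With the replicate number as a block, as each transformation was plated on both sugars, 1 strain was called, that lacking RPL6A, and over all tested strains there were 8 calls for more signal and 200 for less. When replicate 1 of the group on galactose with the MDM33 plasmid was left out, 5 large subunit strains were lower and 2 higher, and the counts over all tested strains were 1516 and 246.

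**Figure D3:**
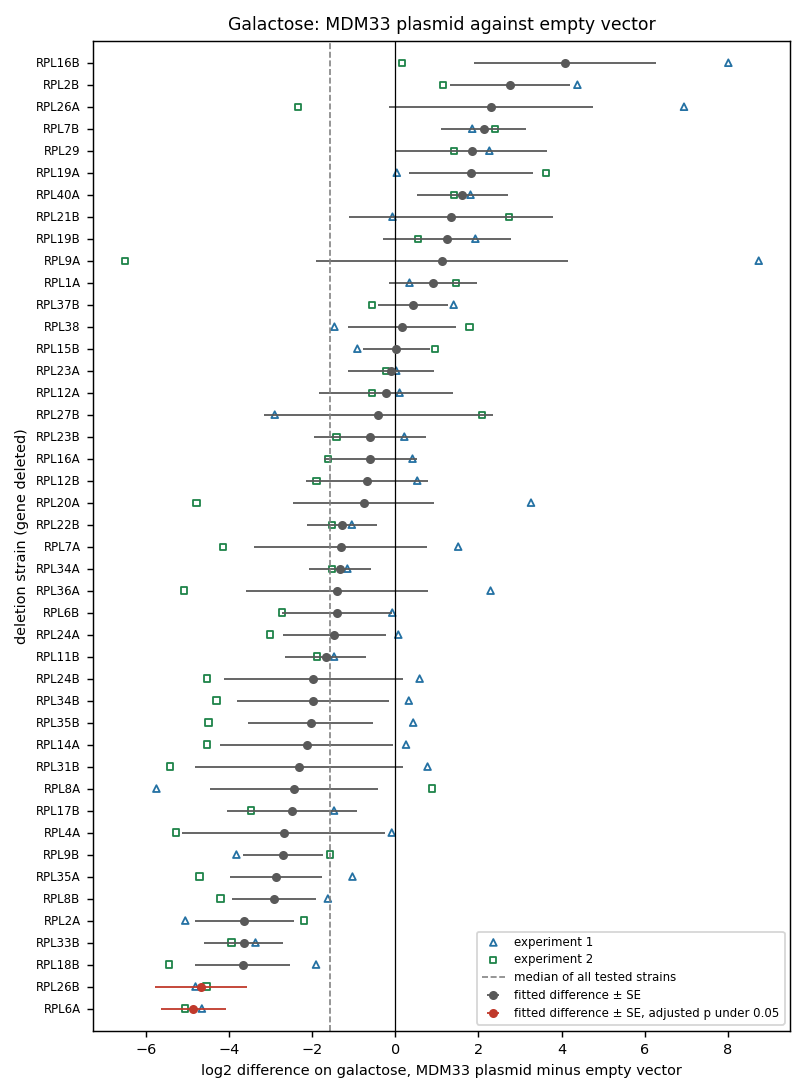
Log2 difference on galactose, MDM33 plasmid minus empty vector, of the 44 tested large subunit strains in the order of the fitted difference. Filled points and bars are the fitted difference ± SE, open symbols the difference within each experiment, and the dashed line the median of all tested strains (-1.57). The 2 strains in red, RPL26B and RPL6A, have nearly the same value in both experiments, while several others, such as RPL9A and RPL26A, lie on opposite sides of 0.

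RPL6A (YML073C, chromosome XIII, 123227 to 124172 of assembly R64) encodes 1 of the copies of Rpl6, a large subunit protein of eukaryotes. Its strain had, with the empty vector, 8847 and 20706 units on glucose and 29535 and 27904 on galactose. Its values in MDM33 plasmid cells were 19430 and 15694 units on glucose and 697 and 350 units on galactose. The values on galactose with the MDM33 plasmid were below those of all other samples of this strain, and neither tag was detected there. The strain fell by 4.86 on the log2 scale between the plasmids on galactose (SE 0.78, adjusted p = 0.0388 from limma, and 0.0493 with the replicate block). The difference was -4.65 in experiment 1 and -5.06 in experiment 2. Relative to the median of all tested strains it was -3.28.

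The fall of the RPL6A strain rests on its downtag. The downtag gave, with the empty vector, 17304 and 37355 units on glucose and 59069 and 51746 on galactose, and 150 and 169 units with the MDM33 plasmid on the latter. The uptag was dim, reading 389 and 4059 units on glucose and 0 and 4062 on galactose in cells with the empty vector, and 1243 and 531 units on galactose in cells with the MDM33 plasmid. By downtags alone the difference was -6.40 (limma adjusted p = 0.00681), and by uptags alone it was -0.17. The call was lost with array weights (adjusted p = 0.231), when only the 2 galactose groups were fitted (0.190), under both further scalings (0.168 and 0.227), and when either replicate of another group was left out (0.0744 to 0.190).

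The paralog strain, lacking RPL6B (YLR448W, chromosome XII, 1028854 to 1029768), had, with the empty vector, 220 and 3155 units on glucose and 27.6 and 3180 on galactose. It had 312 and 3840 units on glucose with the MDM33 plasmid and 2.01 and 57.0 on galactose. In experiment 1 it was not detected in any group, so that a fall there could not have been seen. The difference on galactose between plasmids was -1.40 (limma adjusted p = 0.503). The RPL6A strain minus the RPL6B strain differed by -3.46 in this comparison, with a 95% interval of -7.56 to 0.64, and of -5.97 to -0.94 with the replicate block.

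Rpl26 sits beside the exit of the polypeptide tunnel. The strain lacking RPL26B (YGR034W, chromosome VII, 555812 to 556672) had, with the empty vector, 10890 and 17637 units on glucose and 26220 and 16457 on galactose. Its values in MDM33 plasmid cells were 1327 and 16131 units on glucose and 458 and 230 on galactose, again the lowest values of this strain. It fell by 4.67 between the plasmids on galactose (SE 1.11, limma adjusted p = 0.0465, and 0.0507 with the replicate block), with -4.80 in experiment 1 and -4.54 in experiment 2. On glucose the difference between plasmids was -1.38, from -2.64 in experiment 1 and -0.13 in experiment 2. In experiment 1 a difference in the same direction was thus already present on glucose, at 1327 against 10890 units. The value of -4.80 there is therefore not a change seen on galactose alone.

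The signal of the RPL26B strain came from its uptag, which read on galactose 52391 and 32872 units with the empty vector and 915 and 386 with the MDM33 plasmid. Its original downtag probe gave between 0 and 180 units in every sample. A probe for the re-sequenced version of this downtag, which did not enter the value, gave on galactose 20161 and 6478 units with the empty vector and 50.6 and 121 units with the MDM33 plasmid. Both barcodes of the strain thus read lower with the MDM33 plasmid once the re-sequenced downtag is used, and by the brightest probe of each tag the difference was -4.98 (limma adjusted p = 0.0445). The call was lost with an offset of 100 (adjusted p = 0.0545), with Cy5 alone in experiment 2 (0.0533), by uptags alone (0.118), with array weights (0.282), when only the 2 galactose groups were fitted (0.190) and under both further scalings (0.233 and 0.307). It was also lost without replicate 2 of the group on galactose with the MDM33 plasmid (0.0695) and when either replicate of another group was left out (0.0744 to 0.190).

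The strain lacking the paralog RPL26A (YLR344W, chromosome XII, 819312 to 820142) had, with the empty vector, 773 and 42515 units on glucose and 67.0 and 31546 on galactose. Its values in MDM33 plasmid cells were 4895 and 60496 units on glucose and 69276 and 5848 on galactose. In experiment 1 its highest value was thus on galactose with the MDM33 plasmid, and in experiment 2 its lowest. The difference between plasmids on galactose was 6.94 in experiment 1 and -2.34 in experiment 2, with a fitted value of 2.30 (limma adjusted p = 0.556). RPL26A minus RPL26B was 6.97, and its 95% interval, -1.29 to 15.2, was wide.

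**Figure D4:**
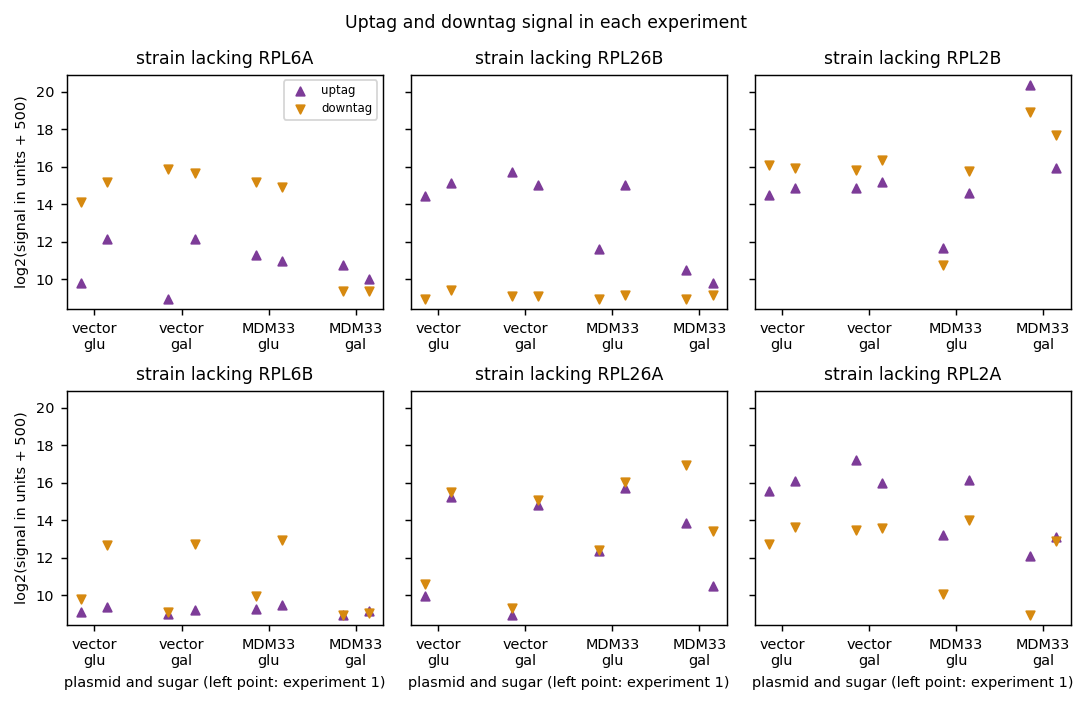
Uptag and downtag signal, as log2(units + 500), of the strains lacking RPL6A, RPL26B and RPL2B (top) and their paralogs RPL6B, RPL26A and RPL2A (bottom) in the 4 groups, with experiment 1 at the left of each pair of positions and experiment 2 at the right. The downtag of the RPL6A strain and the uptag of the RPL26B strain drop in the last group, while both tags of the RPL2B strain are highest there.

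Other tested strains that lack a gene for a protein of the tunnel or its surroundings did not pass the test. Rpl17, Rpl31 and Rpl35 lie around the tunnel and its exit. The strain lacking RPL17B (YJL177W) had on galactose 1829 and 7654 units with the empty vector and 340 and 234 with the MDM33 plasmid, a difference of -2.47. Probes for its re-sequenced barcodes, which did not enter the value, read brighter with the empty vector. The uptag one gave 21883 and 66509 units there and 2509 and 1331 with the MDM33 plasmid. The downtag one gave 11561 and 30949 against 0 and 148. The strain lacking RPL31B had 72.5 and 37824 units with the empty vector against 481 and 400 with the MDM33 plasmid. Its difference was 0.78 in experiment 1, where its barcodes were near or under the limit with both plasmids, and -5.41 in experiment 2. The strains lacking RPL35A and RPL35B had fitted differences of -2.87 and -2.03, and that lacking RPL4A had -2.68. In experiment 1 the differences of the RPL35A, RPL35B and RPL4A strains were -1.03, 0.43 and -0.08. The median of all tested strains was -1.07 there. On galactose in that experiment the RPL35B and RPL4A strains were undetected with both plasmids, so a fall could not have been seen. In experiment 2 the differences were -4.71, -4.49 and -5.27 in the same order, where the median of all tested strains was -2.30.

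Rpl2 lies next to the peptidyl transferase centre, and RPL2A and RPL2B encode the same protein. The strain lacking RPL2A (YFR031C-A, chromosome VI, 220507 to 221418) had on galactose 81105 and 37805 units with the empty vector and 1966 and 7835 with the MDM33 plasmid, a difference of -3.62 (SE 1.19, limma adjusted p = 0.0820). The strain lacking RPL2B (YIL018W, chromosome IX, 316768 to 317932) had on galactose 43492 and 61072 units with the empty vector and 915355 and 136496 with the MDM33 plasmid, a difference of 2.77 (SE 1.44, limma adjusted p = 0.216). In 2 of 2 experiments the RPL2A strain was lower and the RPL2B strain higher, although neither passed the test. The RPL2A differences were -5.05 in experiment 1 and -2.20 in experiment 2, and those of RPL2B were 4.38 and 1.15. The medians of all tested strains were -1.07 and -2.30, so in experiment 2 the RPL2A strain fell about as much as the median strain. Both tags of the RPL2B strain were higher, with 1330330 and 61503 units by the uptag and 500381 and 211489 units by the downtag with the MDM33 plasmid on galactose.

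On glucose the RPL2A strain had 27226 and 40334 units with the empty vector and 4800 and 44784 with the MDM33 plasmid, a difference of -2.39 in experiment 1 and 0.15 in experiment 2. Its difference of galactose minus glucose with the MDM33 plasmid was -1.77, close to the median of all tested strains (-1.88). On glucose with the MDM33 plasmid the RPL2B strain had 1969 and 40095 units, against 45780 and 45820 with the empty vector. Its difference of galactose minus glucose with the MDM33 plasmid was 5.15 (SE 1.44, limma adjusted p = 0.0676), with 8.54 in experiment 1 and 1.75 in experiment 2. The low glucose value of experiment 1 therefore contributed to that difference and not to the comparison on galactose.

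Among strains of the stalks and the factor binding side, the strain lacking RPL1A, a gene for the protein of the L1 stalk, was detected by both tags in both experiments on galactose with the MDM33 plasmid, with 16040 and 102474 units against 12544 and 36814 with the empty vector. Its difference was 0.90. The strains lacking RPL12A and RPL12B, whose product sits at the base of the P stalk, had 78.2 and 280 and 232 and 290 units there. Their differences were -0.23 and -0.68, and both were detected only in experiment 2 in the other 3 groups. The strain lacking RPL11B, for a protein that binds the 5S rRNA, had 987 and 1928 units with the empty vector and 36.4 and 160 with the MDM33 plasmid, a difference of -1.68.

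Rpl9 lies near the site where elongation factors bind. The strain lacking RPL9A had on galactose 68.3 and 76601 units with the empty vector and 242336 and 351 with the MDM33 plasmid. Its difference was thus 8.74 in experiment 1 and -6.50 in experiment 2, the widest gap among the named strains on galactose. The strain lacking RPL9B had 7361 and 1603 units with the empty vector and 56.9 and 209 with the MDM33 plasmid, a difference of -2.69 with the same direction in both experiments.

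Rpl19 and Rpl24 form bridges to the small subunit. The strain lacking RPL19A had on galactose 32.8 and 794 units with the empty vector and 47.0 and 15407 with the MDM33 plasmid, and that lacking RPL19B had 420 and 17629 against 2995 and 25970. Their differences were 1.83 and 1.24. The RPL19A strain was undetected in every group of experiment 1, so its difference came from experiment 2. The strains lacking RPL24A and RPL24B had differences of -1.47 and -1.97, and both were detected on glucose but not on galactose with the MDM33 plasmid. On galactose the RPL24A strain had 405 and 4509 units with the empty vector and 452 and 123 with the MDM33 plasmid. The RPL24B strain had 0 and 23620 against 251 and 549. Both thus fell in experiment 2 alone, and in experiment 1 the RPL24B strain was undetected on galactose with either plasmid.

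The 4 highest differences on galactose among the 44 tested strains were those of the strains lacking RPL16B, RPL2B, RPL26A and RPL7B. The strain lacking RPL16B (YNL069C, chromosome XIV, 493956 to 495001) had 9.20 and 11989 units with the empty vector and 130675 and 13405 with the MDM33 plasmid, a difference of 4.08 (SE 2.18, limma adjusted p = 0.228). It came from experiment 1 (8.01) and was 0.15 in experiment 2. The strain lacking RPL16A had 53.6 and 1537 units against 238 and 165, a difference of -0.60. For RPL7B (YPL198W, chromosome XVI, 173152 to 174702) the values were 53484 and 20720 units with the empty vector and 194232 and 111306 with the MDM33 plasmid. Its difference of 2.12 (SE 1.02, limma adjusted p = 0.184) was 1.85 in experiment 1 and 2.40 in experiment 2, so the experiments were close.

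The lowest after the RPL6A and RPL26B strains were those lacking RPL18B and RPL33B. The strain lacking RPL33B had 31305 and 11833 units with the empty vector and 2597 and 306 with the MDM33 plasmid, a difference of -3.65 (limma adjusted p = 0.0511). The strain lacking RPL18B had 30588 and 33729 against 7806 and 291, a difference of -3.67 (limma adjusted p = 0.0725). For RPL33B and RPL18B both experiments were below 0, at -3.36 and -3.94 and at -1.90 and -5.44.

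The strains detected by both tags in both experiments on galactose with the MDM33 plasmid were 6, lacking RPL1A, RPL2B, RPL7B, RPL16B, RPL34A or RPL40A. RPL40A encodes ubiquitin fused to the ribosomal protein Rpl40. Its strain had on galactose 63505 and 15275 units with the empty vector and 223821 and 41768 with the MDM33 plasmid, a difference of 1.62. The strain lacking the paralog RPL40B, which is not in the list, had a difference of -1.55 (SE 1.45, limma adjusted p = 0.497). The strain lacking RPL34A had 57739 and 44710 against 25723 and 15284, a difference of -1.33 that was above 0 under both further scalings (0.17 and 0.95). In all, 6 of 57 large subunit strains (10.5%) and 12.9% of all strains met this rule.

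Rpl29 and Rpl38 are products of single genes that cells can lose. The strain lacking RPL29 had on galactose 902 and 36616 units with the empty vector and 6229 and 98375 with the MDM33 plasmid, a difference of 1.84. The strain lacking RPL38 had 5974 and 11529 against 1849 and 41001, with -1.46 in experiment 1 and 1.79 in experiment 2. RPL15B is the lesser copy of a gene whose paralog RPL15A is essential. Its strain had 54746 and 29497 units against 28886 and 57512, a difference of 0.02.

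Galactose was also compared with glucose within the MDM33 plasmid, and neither a large subunit strain nor any other passed the test (0% called). The smallest limma adjusted p among the large subunit strains was 0.0593, that of the RPL6A strain, with a difference of -4.15. An unadjusted p under 0.05 was found for 9 of 44 large subunit strains and for 1511 of all tested strains. The median was -1.78 over the large subunit strains and -1.88 over all tested strains. The lowest differences after that of RPL6A were -3.71 for RPL31B and -3.69 for RPL8A, and the highest were 5.15 for RPL2B, 4.25 for RPL7B and 4.06 for RPL16B.

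A count of presence and absence gives the same comparison for single strains. With the MDM33 plasmid, 11 strains had detectable signal on glucose in each experiment and none on galactose in either experiment, which is 19.3% of the 57 (95% Wilson interval 11.1 to 31.3%), against 8.31% of all strains. They lack RPL6A, RPL7A, RPL9B, RPL16A, RPL17B, RPL24A, RPL24B, RPL26B, RPL31B, RPL34B or RPL35B. With the empty vector no large subunit strain (0 of 57, 95% Wilson interval 0 to 6.31%) and 0.742% of all strains did so. Among the 34 strains detected on glucose with the MDM33 plasmid, galactose values were at a median of 28.1% of the glucose values in experiment 1 and 4.32% in experiment 2, where all such strains gave 26.3% and 13.4%. Of these 34 strains, 8 were under 10% in experiment 1 (23.5%) and 19 in experiment 2 (55.9%), against 16.5% and 43.5% of all such strains. Since detection limits were higher on galactose with this plasmid, dim strains could be lost there without a change of signal.

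With the empty vector, galactose against glucose gave no call (0% called) and 0 unadjusted p under 0.05 among the large subunit strains, against 74 over all tested strains. The median difference was -0.12, and it was -0.09 over all tested strains. The extremes lay in experiment 1, where the strain lacking RPL8A had 6.17 units on glucose and 48488 on galactose, against 18817 and 11170 units in experiment 2. The strain lacking RPL27B had 0 units on glucose and 5997 on galactose in experiment 1, and 41816 and 32170 in experiment 2. At the other end, the strain lacking RPL29 had 44636 units on glucose and 902 on galactose in experiment 1, and 29414 and 36616 in experiment 2. The strains lacking RPL20A and RPL24A had fitted differences of -2.28 and -1.67. Among the 26 strains detected on glucose in both experiments, galactose values were at a median of 41.6% of the glucose values in experiment 1 and 114% in experiment 2, where all such strains gave 85.1% and 99.88%. In experiment 1, 8 of these 26 strains were under 10% (30.8%, against 8.68% of all such strains), and in experiment 2 none were (against 1.90%).

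On glucose, where the promoter of the plasmid is off, no strain passed the test between the plasmids (0% called). An unadjusted p under 0.05 was found for 0 large subunit strains and for 43 of all tested strains. The median was 0.23 over the large subunit strains and 0.02 over all. The strain lacking RPL8A had 99409 and 32227 units with the MDM33 plasmid, against the 6.17 and 18817 units with the empty vector, a difference of 4.19 from 7.62 in experiment 1 and 0.76 in experiment 2. RPL36A (2.62) and RPL27B (1.88) followed, and RPL2B (-2.21), RPL26B (-1.38) and RPL24A (-1.22) were lowest. These 5 fitted values too came mainly from experiment 1, in which their differences were between -4.23 and 4.41, while they were between -0.19 and 0.82 in experiment 2. The interaction of plasmid and sugar gave no call (0% called, smallest limma adjusted p among the large subunit strains 0.242). In it 4 large subunit strains and 741 of all tested strains had an unadjusted p under 0.05, and the medians were -1.62 and -1.64.

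For 13 of the 27 pairs both paralog strains were tested, for 13 a single one and for RPL13 neither. In 5 of the 13 tested pairs the strains differed in the sign of the fitted difference on galactose between plasmids. The difference between paralogs had the same sign in both experiments in 6 pairs. Its 95% interval, from the 8 differences between the paralog strains with 4 residual degrees of freedom, left out 0 for the RPL2 pair alone. With 13 intervals and no adjustment, an interval of this kind is a description and not a test.

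RPL2A minus RPL2B was -6.39 on galactose between plasmids (SE 1.73, 95% interval -11.2 to -1.59), with -9.43 in experiment 1 and -3.35 in experiment 2. Against glucose with the MDM33 plasmid it was -6.92 (-11.7 to -2.12). By downtags alone the first value was -4.81 with an interval that held 0, as did the interval without either replicate of the empty vector on galactose. The RPL16 pair differed by -4.68 on galactose (-9.71 to 0.34) and by -5.77 against glucose with the MDM33 plasmid (-10.8 to -0.75). For RPL9 the difference was 3.81, from 12.6 in experiment 1 and -4.93 in experiment 2, so that its interval ran from -9.40 to 17.0.

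The closest pairs were those of RPL12, RPL8, RPL23 and RPL24, with differences of 0.45, 0.48, 0.50 and 0.50. Their intervals were -1.96 to 2.87, -8.75 to 9.70, -1.80 to 2.79 and -7.64 to 8.65, so that differences of many fold between the paralogs were within the error for RPL8 and RPL24. For RPL12 and RPL23 the strains had hardly any signal in experiment 1. The intervals of RPL7, RPL19, RPL34 and RPL35 also held 0, with differences of -3.44, 0.59, 0.65 and -0.84.

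**Figure D5:**
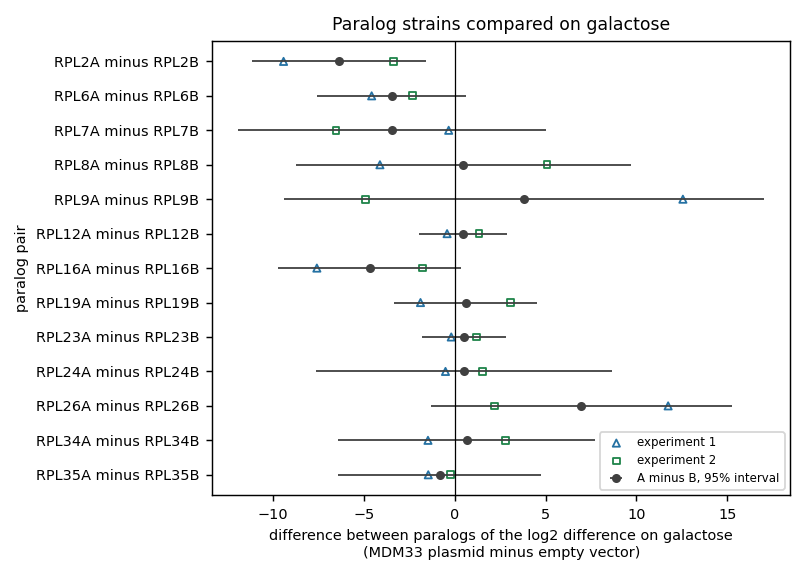
Difference between the strains of a paralog pair in their log2 difference on galactose (MDM33 plasmid minus empty vector), for the 13 pairs with both strains tested. Filled points and bars are the difference of A minus B with its 95% interval, and open symbols the values of each experiment. The interval of RPL2 (-11.2 to -1.59) is the only one that leaves out 0.

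Strains with other deletions around the ribosome were compared between plasmids on galactose as well. Of 35 tested small subunit strains 2 were lower, those lacking RPS27A (-3.83, limma adjusted p = 0.0449) and RPS9A (-3.79, adjusted p = 0.0471), and the median was -0.94. Of 6 tested strains lacking another large subunit or stalk gene, 2 were lower, those lacking RPP1A (-4.56, limma adjusted p = 0.0423), a gene for an acidic protein of the P stalk, and RPL43B (-3.34, adjusted p = 0.0453). The median of these 6 strains was -2.45. None of 12 tested strains lacking a factor for assembly or export of the large subunit passed the limma test, while an unadjusted p under 0.05 was found for 2. Their median was -1.55. Over all 4109 tested strains 8.88% were called lower, 1406 had an unadjusted p under 0.05, and the median was -1.57.

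Over the 8 centred log2 values, the tested strains most like that lacking RPL6A lacked MXR2, SPF1 and ZNG1, at Euclidean distances of 0.88, 0.90 and 0.94. For the RPL26B strain they lacked STE20, MGP12 and RIM8, at 0.91, 0.95 and 1.02. These distances over 4109 strains are a description of the pattern.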

How the data were processed

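Uptags and downtags of the pooled strains were hybridized to a barcode array in 24 dye channels, and a channel summed to between 147379493 and 147666701 units. The deposited intensities were background-corrected by the authors with ArrayVision and scaled to a common total per channel. The number of arrays limits the precision. Unscaled values in 24 other columns were left out, as those columns are numbered differently from the sample titles, and 26 of 14767 annotated probes had no value. The original probe of each tag was used, or the re-sequenced one where it had none, dyes were averaged and then tags. The detection limit of a channel was the 99th percentile of the original probes of the tag not labelled. Strains with a mean ratio to the limit above 1 over the 8 values were tested with lmFit, contrasts and eBayes of limma on log2(units + 500), with Benjamini-Hochberg adjustment at 0.05 and 4 residual degrees of freedom. The procedure was tested on simulated data in which a strain had the same spread in all 4 groups. The larger spread of the group on galactose with the MDM33 plasmid was not covered. The study calls the experiments independent without saying at which step they parted, and a p measures the spread between these samples.

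The series describes each transformation as plated on both sugars, so replicate numbers pair the samples. Correlations of their deviations from the group means were between 0.0637 and 0.312. Members, lists and the rule for named strains were chosen with earlier results of these data known. Named were strains past the test with their paralogs, the strains with the highest and lowest differences in each comparison, the 4 pairs that differed most, strains detected by both tags in both experiments on galactose with the MDM33 plasmid, and those without a paralog in the list. Other strains were chosen after their values were seen. RefSeq's table of assembly R64 gave names and coordinates, and 440 of the 5526 strains kept systematic names. Alternatives covered the offset, scaling, background, filter, tags, probes, dyes, array weights, replicate block, prior, groups fitted and each replicate left out. Barcode sequences were not used here. The values of 1 strain that was counted but not tested are not reported here. Computations used Python 3.11.15, pandas 2.3.3, numpy 2.4.6, scipy 1.17.1, matplotlib 3.10.9, R 4.3.3 and limma 3.58.1.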

Additional observations from a re-analysis of the deposited data

Results flagged for a closer look

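In 7 of the 44 tested strains (15.9%, against 14.5% of all tested strains) the change from glucose to galactose ran in opposite directions with the 2 plasmids in both experiments, upward with the empty vector and downward with the MDM33 plasmid. The interaction was -5.21 for the strain lacking RPL6A, -4.01 for RPL36A, -3.71 for RPL33B, -2.95 for RPL4A, -1.98 for RPL11B, -1.69 for RPL22B and -1.42 for RPL34A. In experiment 1 some of these changes were close to 0, such as 0.08 and -0.06 for RPL4A, 0.06 with the empty vector for RPL36A and -0.05 with the MDM33 plasmid for RPL11B. These 4 changes were between values under the detection limit, so their direction carries no information. The RPL4A strain was undetected in every group of experiment 1. None passed the interaction test of limma (smallest adjusted p 0.242), and the reverse pattern was found in 0 of 44 and in 1.46% of all tested strains.

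Probes for re-sequenced barcodes that did not enter the values also had high signal on galactose with the MDM33 plasmid. In the RPL2B strain 1 such uptag probe had a mean of 835107 units there, from 1436540 in experiment 1 and 233674 in experiment 2, against 43303 to 83138 units with the empty vector. Another had a mean of 513181 units, against 24746 to 37453 with the empty vector. In the RPL7B strain such an uptag probe had a mean of 187432 units, from 118194 and 256669, against 17740 to 62411 with the empty vector.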

How the results depend on the processing

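On galactose between plasmids, 2 large subunit strains were called. The count was 0 when channels were scaled to their 75th percentile, over all barcodes or the labelled ones, by uptags alone, with array weights and with only the 2 groups compared, and 1 with Cy5 alone in experiment 2, by downtags alone, with an offset of 100 and with the replicate block. It was 0 to 7 with 1 replicate left out. The median over large subunit strains was 0.67 with the scaling to labelled barcodes and -1.91 to 0.41 with a replicate left out. The median of all tested strains moved from -1.57 to -0.40 and 0.72 under the 2 scalings, and relative to it the RPL6A strain stood at -4.90 and -3.30 and the RPL26B strain at -3.87 and -3.68.

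Against glucose with the MDM33 plasmid the count of 0 became 1 and 2 under the 2 scalings, 3 among strains detected on glucose with the empty vector, 3 by downtags alone, 2 without a filter, 3 with an offset of 2000, and 0 to 7 with a replicate left out. The median was -0.0242 with the labelled scaling, and -2.72 to -0.59 with a replicate left out. With the empty vector the median was 0.14 with the scaling to all barcodes, -0.52 among strains detected on glucose, 0.036 by downtags alone, and -1.45 to 0.78 with a replicate left out. On glucose it was 0.055 among strains detected there, 0.082 by uptags alone, and -0.48 to 1.17 with a replicate left out. The interaction median was 0.38 with the labelled scaling, and the count was 0 to 5 with a replicate left out. The replicate block changed no call other than that of RPL26B and the interval of the RPL6 pair.

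Detection by both tags left 13, 10, 17 and 6 strains in the 4 groups. Paralog intervals without 0 numbered 2 under either scaling, without a filter, with an offset of 2000 and with the replicate block, 0 by downtags alone, 3 by uptags alone, and 0 to 2 with a replicate left out. The direction turned for RPL15B with Cy5 alone (-0.020), RPL16A under the scalings (0.022 and 0.61), RPL34A (0.17 and 0.95), RPL38 by uptags (-0.10), RPL9A by downtags (-0.20) and RPL8A with the empty vector by uptags (-0.079). With a replicate left out, the galactose difference ranged from -0.47 to 0.51 for RPL15B, -1.54 to 0.34 for RPL16A, -0.42 to 2.22 for RPL1A, -0.61 to 5.21 for RPL26A, -0.52 to 4.20 for RPL29, -1.91 to 2.23 for RPL38, -2.80 to 0.0032 for RPL6B and -2.96 to 5.20 for RPL9A. The range with the empty vector was -4.85 to 0.30 for RPL20A, -1.54 to 4.86 for RPL27B and -4.71 to 0.015 for RPL29, and on glucose -2.64 to 0.20 for RPL24A, -2.98 to 0.21 for RPL26B and -1.32 to 5.08 for RPL27B. The causes were not tested. All counts rest on 2 experiments per group, and a dim strain on galactose with the MDM33 plasmid could not be followed below its detection limit.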
